A study of Mus musculus with 12 samples.

Results

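The tubulin isoform genes were followed in mouse muscle that expressed the human long noncoding RNA *FRAIL1*. The group holds 10 of the 27179 genes listed, taken by gene identifier: the alpha-tubulin genes *Tuba1a*, *Tuba1b*, *Tuba1c*, *Tuba4a* and *Tuba8*, and the beta-tubulin genes *Tubb2a*, *Tubb2b*, *Tubb3*, *Tubb5* and *Tubb6*. All 10 had enough reads to be tested. RNA was sequenced from 12 tibialis anterior (TA) muscles, the fast muscle at the front of the shin, of 6 male C57BL/6N mice (genotype WT) that arrived at 6 to 8 weeks of age and were used within 2 weeks. In each mouse, 1 TA received 10 μg of the empty plasmid pcDNA3.1(+) (Control, 6 muscles) and the opposite TA received 10 μg of the same plasmid carrying full-length *FRAIL1* (*FRAIL1*, 6 muscles), and both were collected 7 days later. Both groups therefore share the hyaluronidase injection, the plasmid backbone and the electroporation. Plasmid delivery in this way reaches many but not all fibers, the plasmid's CMV promoter is not restricted to muscle, and the level of *FRAIL1* RNA itself was not analysed here. Same-numbered muscles were taken as the 2 legs of one mouse, although the labels do not state that the number names the mouse.

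Alpha- and beta-tubulin form the dimer from which microtubules are built, and each is encoded by several genes whose products, called isotypes, are very alike except in the acidic tail at the end of the protein. In adult muscle fibers, microtubules form a lattice under the membrane and around the nuclei that carries cargo and adds to the stiffness of the fiber. The tail is where enzymes remove or restore the last residue of alpha-tubulin, a tyrosine in most isotypes, and where glutamates are added. Cells also control tubulin at the mRNA level: when free dimer is plentiful, the factor TTC5 recognises the first residues of new tubulin on the ribosome and the mRNA is degraded.

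The ends of the coding sequences are shown because they are where the isotypes part. Each line gives the last 20 codons and the stop codon, 5′ to 3′, with the last sense codon in capitals, read from GENCODE vM21 on GRCm38. The ends of *Tuba1a*, *Tuba1b*, *Tuba1c* and *Tubb6* are not shown.

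Tuba4a: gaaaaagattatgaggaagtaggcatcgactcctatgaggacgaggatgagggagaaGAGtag
Tuba8: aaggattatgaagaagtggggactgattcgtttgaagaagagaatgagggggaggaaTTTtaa
Tubb2a: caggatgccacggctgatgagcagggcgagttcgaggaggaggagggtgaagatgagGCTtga
Tubb2b: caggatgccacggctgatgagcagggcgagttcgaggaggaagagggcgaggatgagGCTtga
Tubb3: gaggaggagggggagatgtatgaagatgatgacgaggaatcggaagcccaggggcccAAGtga
Tubb5: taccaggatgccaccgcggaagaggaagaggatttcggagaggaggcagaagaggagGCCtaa

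*Tuba4a* ends in GAG, a glutamate codon, and *Tuba8* in TTT, a phenylalanine codon, so that neither codes for a final tyrosine. At the other end, the first 12 coding bases, which code for the stretch TTC5 reads, were atgcgcgagtgc in *Tuba4a* and atgagggaatgc in *Tuba8*. In the beta genes they were atgcgcgagatc in *Tubb2a*, atgcgagagatc in *Tubb2b*, atgagggagatc in *Tubb3* and atgagggaaatc in *Tubb5*, so that the fourth codon was tgc in these alpha genes and atc in these beta genes.

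The 3 *Tuba1* genes lie close together on chromosome 15 (*Tuba1b* at chr15:98931425-98934565, *Tuba1a* at chr15:98949837-98953703, *Tuba1c* at chr15:99029891-99038110), and their coding sequences were 98.3% (*Tuba1a* and *Tuba1b*), 97.6% (*Tuba1b* and *Tuba1c*) and 96.8% (*Tuba1a* and *Tuba1c*) identical. *Tubb2a* (chr13:34074274-34078007) and *Tubb2b* (chr13:34126748-34130466) are neighbours as well, with coding sequences 96.5% identical. *Tuba4a* lies at chr1:75214228-75219865, *Tuba8* at chr6:121210696-121226854, *Tubb3* at chr8:123411424-123422015 and *Tubb5* at chr17:35833921-35838306.

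Close copies matter because reads were counted only where they mapped to one place. Stretches at least 98% identical to another transcript over at least 100 bases covered 80.6% of the *Tuba1a* transcript, 91.1% of *Tuba1b* and 65.9% of *Tuba1c*. This counts each other, pseudogenes such as *Gm14150* and *Gm3756*, and the long noncoding RNA *AC157548.1*. In *Tuba1b*, *AC157548.1* alone covered the 91.1%, and *Tuba1a* covered 77.85%. Values of the 3 *Tuba1* genes are therefore uncertain one by one, and their levels per length may be understated. How many reads were lost was not measured. For the 5 beta genes no alignment reached this identity. Each alignment was judged by its mean identity, so shorter stretches inside a less alike one could be missed. That limit applies to *Tubb2a* and *Tubb2b*, whose coding sequences are 96.5% identical. *Tuba4a* shares 48.6% of its longest transcript with *Stk16*, a gene on the opposite strand, and *Tuba8* shares 16.4% with the antisense gene *Gm15856*, and the sources used here do not say whether counting used the strand.

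Sequencing depth ranged from 45018389 to 59309210 counts in Control muscles and from 44848322 to 60527385 in *FRAIL1* muscles. Levels are given as CPM, a gene's counts per 1000000 counts of its library, scaled by the trimmed mean of M values (TMM), and genes were tested with edgeR's quasi-likelihood test, whose adjusted p (Benjamini-Hochberg, over all 15502 genes tested) was called below 0.05. *FRAIL1* muscle 5 stood apart from the other libraries, with a score of 59.5 on the first principal component (32.4% of the variance) where the next highest muscle had 25.8. Markers of adult fast fibers summed to between 126320 and 150771 CPM in Control muscles and to between 98347 and 133542 CPM in *FRAIL1* muscles, with muscle 5 the lowest, and no marker of this list was at 0.

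Among the 10 tubulin genes, 4 rose in *FRAIL1* muscles and none was called lower. The 4 were *Tubb6*, *Tubb2b*, *Tubb2a* and *Tuba1b*, while 6.28% of all genes tested were called in either direction, 4.43% higher and 1.85% lower. The fit that blocked on the replicate number called 4 higher and 0 lower too, where 14.1% of all genes were called in either direction and 7.48% were called higher. The median log2 fold change of the 10 was 0.43 and that of all genes tested was 0.01. The unadjusted p of edgeR's test was below 0.05 in 27.7% of all genes, and also in *Tuba8*, *Tuba1c* and *Tuba1a* among the members not called. DESeq2 called *Tuba8* lower (adjusted p = 0.0384). The *FRAIL1* muscles were all above the Control muscles in 2 members, against 3.12% of all genes, and all below them in 0 members, against 1.77%.

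**Figure D1:**
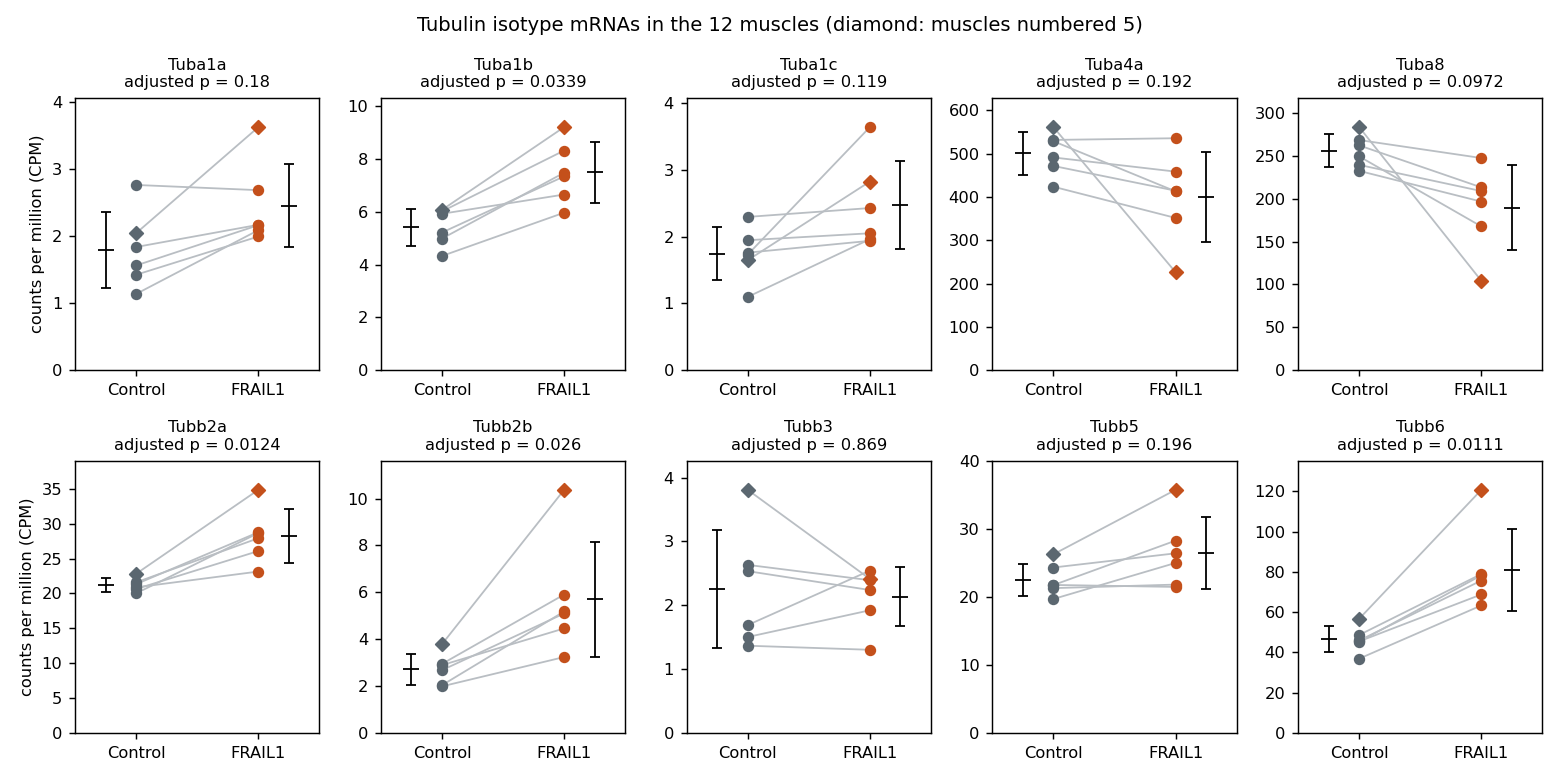
Level of each tubulin mRNA (y axis, CPM, starting at 0) in the 6 Control and 6 *FRAIL1* muscles, with lines joining same-numbered muscles, diamonds for the muscles numbered 5 and bars beside the points for the mean ± SD. In *Tubb6* and *Tubb2a* the points of the groups do not overlap, and in *Tuba4a* and *Tuba8* the lowest point is *FRAIL1* muscle 5.

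Of the beta-tubulins, *Tubb6* is the class V isotype, known for being raised in dystrophic and regenerating muscle. Its level lay between 36.9 and 56.7 CPM in Control muscles (median 45.7) and between 63.3 and 121 CPM in *FRAIL1* muscles (median 76.99). The groups did not overlap, so that the *FRAIL1* leg was higher in 6 of 6 mice under any pairing. The fold change was 1.74 (95% interval 1.41 to 2.15, n = 6 per group), or 0.80 ± 0.142 (SE) on the log2 scale, with an edgeR adjusted p of 0.0111. *FRAIL1* muscle 5 was far above the other 5, and without it the log2 fold change was 0.65 with an adjusted p of 0.000848. *Tubb6* was called in all 25 alternative fits.

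*Tubb2b*, a class II isotype best known from migrating neurons, had the largest fold change of the 10 on a low level. It was read at 1.99 to 3.79 CPM in Control muscles (median 2.78) and at 3.24 to 10.4 CPM in *FRAIL1* muscles (median 5.14). In 5 of the 6 *FRAIL1* muscles it exceeded the highest Control muscle, muscle 3 being the exception. It rose 2.10-fold (95% interval 1.46 to 3.03), with a log2 fold change of 1.07 ± 0.247 (SE) and an edgeR adjusted p of 0.0260. Leaving out *FRAIL1* muscle 5, its highest, lowered the log2 fold change to 0.81 (adjusted p = 0.0152). The call was lost without Control muscle 1 (adjusted p = 0.0621), 2 (0.0519), 3 (0.0607) or 6 (0.0501), each with a log2 fold change of 0.99 to 1.09.

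*Tubb2a*, the close neighbour and near twin of *Tubb2b*, changed less but with little spread. Control muscles lay between 20.02 and 22.8 CPM (median 21.1) and *FRAIL1* muscles between 23.1 and 34.9 CPM (median 28.3). No *FRAIL1* muscle reached down to a Control muscle, so that the *FRAIL1* leg was the higher one in 6 of 6 mice under any pairing. The fold change was 1.33 (95% interval 1.18 to 1.498), or 0.41 ± 0.0802 (SE) in log2, with an edgeR adjusted p of 0.0124. Like *Tubb6*, it was called in all 25 alternative fits.

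*Tubb5*, the class I isotype of most dividing and nondividing cells, did not pass the test. Control muscles had 19.7 to 26.3 CPM (median 21.8) and *FRAIL1* muscles 21.5 to 35.8 CPM (median 25.7), with overlapping groups and a log2 fold change of 0.23 ± 0.114 (SE; edgeR adjusted p = 0.196), or 0.13 without *FRAIL1* muscle 5 (adjusted p = 0.426). *Tubb3*, the class III isotype used as a neuronal marker, lay between 1.37 and 3.81 CPM in Control muscles (median 2.11) and between 1.30 and 2.54 CPM in *FRAIL1* muscles (median 2.31). Its log2 fold change was -0.08, with a 95% interval from -0.60 to 0.44, and the *FRAIL1* leg was the higher one in 2 of 6 mice (edgeR adjusted p = 0.869). The sign for *Tubb3* turned to 0.13 without Control muscle 5, which had its highest level.

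Of the alpha-tubulins, *Tuba1b*, one of the broadly expressed isotypes, was the gene called. It measured 4.32 to 6.07 CPM in Control muscles (median 5.56) and 5.96 to 9.20 CPM in *FRAIL1* muscles (median 7.40). Only *FRAIL1* muscle 6 fell within the Control range, and the *FRAIL1* leg was higher in 6 of 6 mice. The fold change was 1.38 (95% interval 1.16 to 1.65), with a log2 fold change of 0.47 ± 0.118 (SE) and an edgeR adjusted p of 0.0339. The call did not survive leaving out Control muscle 1 (adjusted p = 0.0711), 2 (0.0728), 3 (0.0553) or 6 (0.0638), or *FRAIL1* muscle 1 (0.0637) or 4 (0.0705), although the log2 fold change stayed between 0.41 and 0.49 in these fits.

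The other members of the *Tuba1* cluster had fold changes of similar size and wider errors. *Tuba1a*, the main alpha isotype of developing neurons, ranged from 1.14 to 2.76 CPM in Control and from 1.995 to 3.63 CPM in *FRAIL1* muscles, with a log2 fold change of 0.45 ± 0.213 (SE; edgeR adjusted p = 0.180). *Tuba1c* ranged from 1.10 to 2.29 CPM and from 1.94 to 3.64 CPM, with a log2 fold change of 0.50 ± 0.197 (SE; edgeR adjusted p = 0.119). In both genes the groups overlapped, and *Tuba1c* was higher in the *FRAIL1* leg of 6 of 6 mice. Because these 3 genes share most of their sequence, their counts were also added to one value before the fit. The sum was 8.96 ± 0.704 CPM (SD, n = 6) in Control muscles, with a range of 8.18 to 9.87, and 12.4 ± 1.89 CPM (SD, n = 6) in *FRAIL1* muscles, with a range of 10.6 to 15.6. The summed groups did not overlap, and the log2 fold change was 0.47 ± 0.0972 (SE; edgeR adjusted p = 0.0155).

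*Tuba4a* and *Tuba8*, whose coding sequences do not end in a tyrosine codon, were the most abundant members and pointed the other way without passing the edgeR test. *Tuba4a* lay between 424 and 562 CPM in Control muscles (median 510.2) and between 226 and 536 CPM in *FRAIL1* muscles (median 414). Its log2 fold change was -0.33 with a 95% interval from -0.66 to 0.01 (edgeR adjusted p = 0.192), and the *FRAIL1* leg was the higher one in 1 of 6 mice. *Tuba8*, an isotype concentrated in striated muscle and testis, lay between 232 and 284 CPM in Control and between 104 and 247 CPM in *FRAIL1* muscles. It was lower in the *FRAIL1* leg of 6 of 6 mice, and 5 of the 6 *FRAIL1* muscles were below the lowest Control muscle. The log2 fold change of *Tuba8* was -0.43 with a 95% interval from -0.77 to -0.10 and an edgeR adjusted p of 0.0972. In both genes *FRAIL1* muscle 5 was the lowest, and without it the log2 fold changes were -0.21 for *Tuba4a* (adjusted p = 0.224) and -0.31 for *Tuba8*, which then passed (adjusted p = 0.0362). *Tuba8* also passed without *FRAIL1* muscle 3 (log2 fold change -0.52, adjusted p = 0.0391) and with limma voom (adjusted p = 0.0293). Both genes were called lower by DESeq2 with the replicate block (adjusted p = 0.0271 for *Tuba4a* and 0.00387 for *Tuba8*) and by edgeR with the block and without the muscles numbered 5 (0.0375 and 0.00524).

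**Figure D2:**
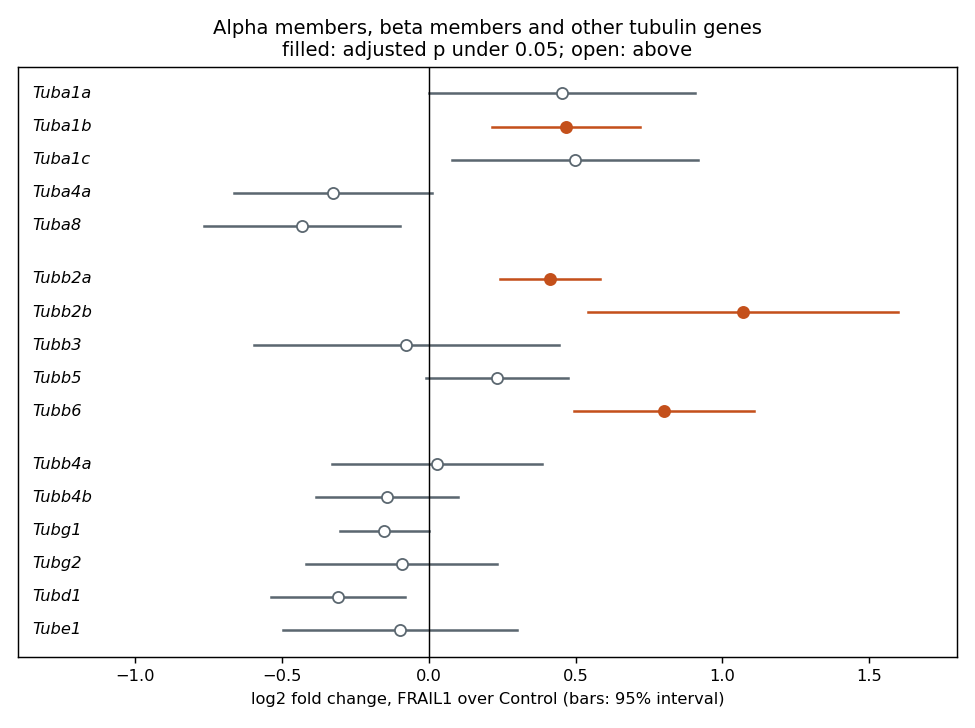
Log2 fold change of *FRAIL1* over Control (x axis) with its 95% interval (bars) for the 5 alpha members, the 5 beta members and 6 other tubulin genes that were tested, filled where the edgeR adjusted p was below 0.05. Filled points are *Tuba1b*, *Tubb2a*, *Tubb2b* and *Tubb6*, all to the right of 0, and none of the 6 other tubulin genes is filled.

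Levels of different genes can be set side by side only per length, here as CPM per kilobase of exon. Among the alpha genes the order was the same in both groups: *Tuba4a* was highest at 136 ± 13.4 (SD, n = 6) in Control and 108 ± 28.3 in *FRAIL1* muscles, followed by *Tuba8* at 113 ± 8.44 and 83.8 ± 21.7. *Tuba1b* came next at 2.89 ± 0.374 and 3.99 ± 0.616, then *Tuba1a* at 0.996 ± 0.316 and 1.36 ± 0.345 and *Tuba1c* at 0.763 ± 0.172 and 1.08 ± 0.291, these 3 being possibly understated as said above. *Tuba4a* and *Tuba8* overlapped over muscles in each group, as did *Tuba1a* and *Tuba1c*, and the other neighbours in this order did not.

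Per kilobase, *Tubb6* was the highest of the 5 beta members, at 19.1 ± 2.62 CPM (SD, n = 6) in Control and 33.2 ± 8.37 CPM in *FRAIL1* muscles. Next were *Tubb2a* at 13.2 ± 0.597 and 17.5 ± 2.41 CPM per kilobase, and *Tubb5* at 6.78 ± 0.712 and 7.96 ± 1.58. At the low end, *Tubb3* had 1.21 ± 0.497 and *Tubb2b* 1.19 ± 0.291 CPM per kilobase in Control muscles, with overlapping ranges. In *FRAIL1* muscles *Tubb2b* stood at 2.49 ± 1.07 and *Tubb3* at 1.14 ± 0.246, and their ranges no longer overlapped. *Tubb4b*, a beta-tubulin outside the 10, exceeded all 5 with 59.3 ± 8.86 and 53.7 ± 8.69 CPM per kilobase.

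The make-up of each pool was then described per muscle, with no test, as the share of each gene in the summed CPM per kilobase of the 5 alpha or the 5 beta members. The alpha pool summed to 253 ± 21.0 CPM per kilobase (SD, n = 6) in Control and 198 ± 46.9 in *FRAIL1* muscles, and the beta pool to 41.4 ± 4.06 and 62.4 ± 13.1. The beta sum leaves out *Tubb4a* (2.03 and 2.07 CPM per kilobase) and *Tubb4b* (59.3 and 53.7), neither of them called. It therefore does not stand for all beta-tubulin mRNA. *Tubb6* made up 45.9% ± 2.701 (SD) of the beta pool in Control and 53.0% ± 2.90 in *FRAIL1* muscles, and its share was higher in the *FRAIL1* leg of 6 of 6 mice. *Tubb5* held 16.4% ± 1.01 and 12.8% ± 0.588 among these 5 genes, with ranges that did not overlap (14.5% to 17.4% and 12.2% to 13.7%). Its share was therefore lower in all 6 *FRAIL1* legs under any pairing. With *Tubb4a* and *Tubb4b* in the pool, that direction turned, to 6.62% and 6.71%. *Tubb2a*, although its own level rose, held 32.0% ± 2.26 and 28.5% ± 2.82, a lower share in 6 of 6 mice, which turned to a higher one with *Tubb4a* and *Tubb4b* in the pool (12.9% and 14.9%). The share of *Tubb2b* was 2.84% ± 0.498 and 3.87% ± 0.837, and that of *Tubb3* 2.88% ± 0.9998 and 1.86% ± 0.406.

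In the alpha pool, *Tuba4a* held 53.5% ± 1.48 (SD) in Control and 54.3% ± 3.56 in *FRAIL1* muscles, higher in 3 of 6 mice. The *Tuba8* share was 44.7% ± 1.41 and 42.1% ± 3.51 and was lower in 6 of 6 *FRAIL1* legs. *Tuba1b* accounted for 1.15% ± 0.168 and 2.20% ± 1.04 and was higher in 6 of 6. With the length free of stretches shared with other genes its share was 6.74% and 11.9%. That value divides all *Tuba1b* counts, also any read from shared stretches, by 155 bases in place of 1875, so it can overstate the share. These shares depend on the length used for each gene and on which genes are pooled: with *Tubb4a* and *Tubb4b* added, *Tubb6* made up 18.6% of the beta pool in Control and 27.9% in *FRAIL1* muscles.

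**Figure D3:**
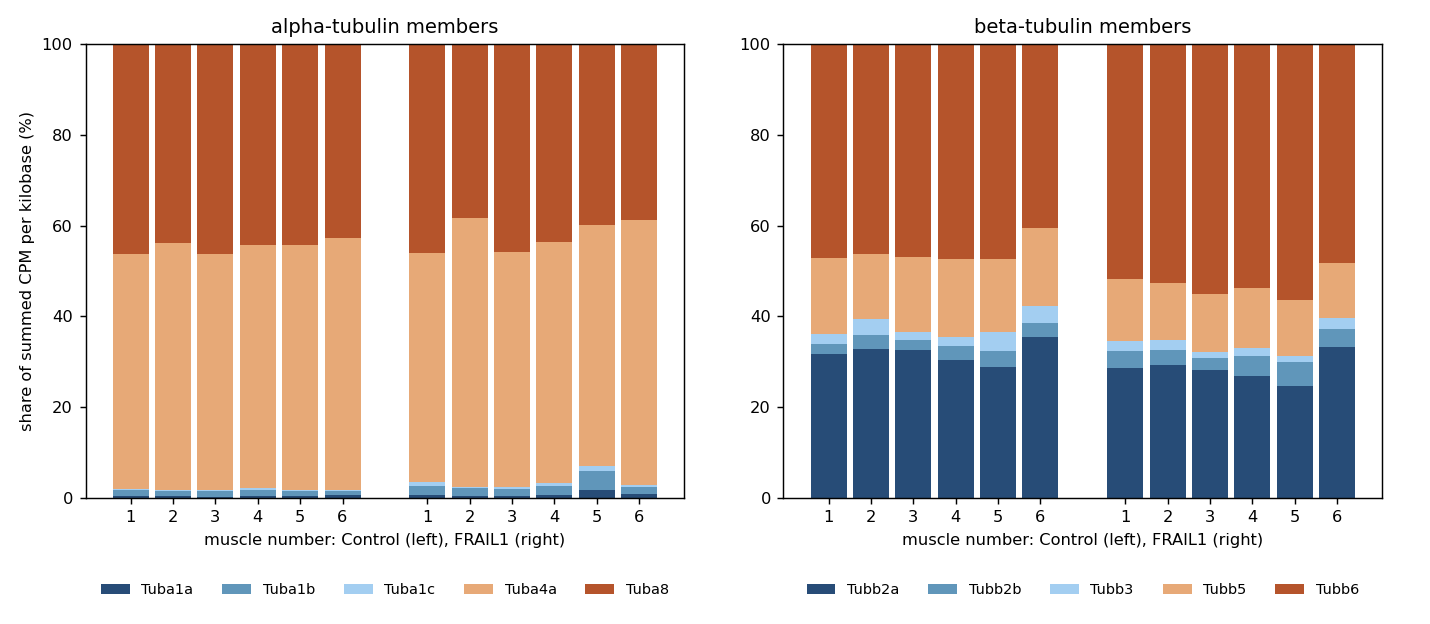
Stacked bars show the share (y axis, percent of summed CPM per kilobase) of each alpha member (left panel) and beta member (right panel) in each of the 6 Control and 6 *FRAIL1* muscles. *Tuba4a* and *Tuba8* fill almost the whole alpha pool in every muscle. Among the 5 beta members, *Tubb6* holds a larger share in *FRAIL1* than in Control muscles, 53.0% on average against 45.9%. With *Tubb4a* and *Tubb4b*, which are not drawn, its share was 27.9% against 18.6%.

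Of 10 other tubulin genes, 6 had enough reads and none was called. *Tubb4b* had 124 ± 18.5 CPM (SD, n = 6) in Control and 112 ± 18.1 in *FRAIL1* muscles (log2 fold change -0.14, edgeR adjusted p = 0.435), and *Tubb4a* had 4.53 ± 1.22 and 4.61 ± 0.693 CPM (log2 fold change 0.03, adjusted p = 0.933). *Tubg1*, whose gamma-tubulin nucleates microtubules, had a log2 fold change of -0.15 (adjusted p = 0.180). *Tuba3a*, *Tuba3b* and *Tubb1* were read at 0.259 CPM or less in every muscle and *Tubal3* at 0. With the replicate block, *Tubd1*, which encodes delta-tubulin of centrioles, was called lower (log2 fold change -0.31 without the block, adjusted p = 0.0831, and 0.0498 with it).

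The genes that fold, modify, bind and use tubulin were read, with the other tubulins, from 6 lists of 128 tested genes, of which 15 were called higher and 4 lower (14.8%, against 6.28% of all genes tested). The median log2 fold change over these 128 genes was 0.02. With the replicate block the counts were 18 higher and 11 lower, against 7.48% and 6.62% of all genes in that fit. Leaving out *FRAIL1* muscle 2 or 3 gave 9 or 10 called lower, and leaving out Control muscle 1, 2 or 3 or *FRAIL1* muscle 1, 4 or 6 gave 1. The number called higher was 7 without Control muscle 2, 8 without Control muscle 3 or *FRAIL1* muscle 1, and 9 without Control muscle 1, 4 or 6 or *FRAIL1* muscle 6.

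Folding of tubulin needs prefoldin, the CCT ring and the tubulin cofactors, and of 24 genes for folding and mRNA autoregulation 2 rose (8.33%, near the 6.28% of all genes tested). *Tbcc*, the cofactor that completes the dimer, lay between 9.34 and 11.2 CPM in Control muscles (median 10.3) and between 11.4 and 18.2 CPM in *FRAIL1* muscles (median 14.3), without overlap. Its log2 fold change was 0.50 ± 0.0973 (SE; edgeR adjusted p = 0.0124). *Ttc5*, which encodes the autoregulation factor described above, went from 9.15 to 11.03 CPM (median 9.76) in Control to 11.1 to 13.7 CPM (median 11.8) in *FRAIL1* muscles, again without overlap. The log2 fold change of *Ttc5* was 0.28 ± 0.0768 (SE; edgeR adjusted p = 0.0464), and it passed in 3 of 12 fits that each left out 1 muscle, with the highest adjusted p, 0.0943, without Control muscle 3. The list's median log2 fold change was 0.05, and none of the 8 subunit genes of the CCT ring was called, although *Cct3* passed with the replicate block (adjusted p = 0.0553 without and 0.0273 with it).

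Among the enzymes that modify tubulin, 5 of 22 tested genes rose (22.7%, beside 6.28% of all genes tested called) and none was called lower, with a list median of 0.15. With the replicate block, 5 were called higher and 2 lower, beside 7.48% and 6.62% of all genes. *Vash2* encodes one of the carboxypeptidases that remove the final tyrosine of alpha-tubulin. It was read at 2.72 to 4.09 CPM in Control muscles (median 3.53) and at 5.41 to 20.02 CPM in *FRAIL1* muscles (median 8.42), with no overlap of the groups and with *FRAIL1* muscle 5 highest. The log2 fold change was 1.53 ± 0.267 (SE; edgeR adjusted p = 0.0105), and 1.21 without *FRAIL1* muscle 5. *Svbp*, the small partner that vasohibins need and a gene named here after its value was seen, had a log2 fold change of 0.40 ± 0.106 (SE; edgeR adjusted p = 0.0389) and passed in 3 of 12 fits that left out 1 muscle, with the highest adjusted p, 0.0863, without Control muscle 1.

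*Matcap1*, listed as *4931428F04Rik*, encodes another tyrosine-removing enzyme and went from 1.73 ± 0.257 CPM (SD, n = 6) to 2.74 ± 0.772 CPM. The log2 fold change was 0.66 ± 0.178 (SE; edgeR adjusted p = 0.0416), but it passed in only 2 of the 12 leave-one-out fits, with the highest adjusted p, 0.0899, without Control muscle 1. *Ttl*, which puts the tyrosine back, had a log2 fold change of -0.11 (edgeR adjusted p = 0.249) and was not called. Of the genes for glutamylation and relatives, *Ttll1* rose from 8.04 ± 0.771 to 11.6 ± 1.58 CPM (log2 fold change 0.53 ± 0.0973 (SE), edgeR adjusted p = 0.0104) and *Ttll12* from 13.2 ± 0.875 to 18.5 ± 2.74 CPM (0.50 ± 0.0889 (SE), adjusted p = 0.00879). Neither overlapped between groups, and both were called in all 25 alternative fits.

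Of 40 microtubule-associated proteins, 6 rose and 2 fell (20% together, beside 6.28% of all genes tested), with a list median of 0.06. With the replicate block, 7 were called higher and 5 lower, beside 7.48% and 6.62% of all genes. *Map1b*, a stabilising protein of growing axons and developing muscle, lay between 20.5 and 24.3 CPM in Control muscles (median 22.7) and between 37.7 and 73.6 CPM in *FRAIL1* muscles (median 45.3). The groups were far apart, and the log2 fold change was 1.10 ± 0.140 (SE; edgeR adjusted p = 0.00209). *Dclk1*, a kinase with doublecortin domains that bind microtubules, went from 7.35 to 11.2 CPM (median 10.5) in Control to 12.5 to 32.8 CPM (median 20.4) in *FRAIL1* muscles, with a log2 fold change of 1.09 ± 0.203 (SE; edgeR adjusted p = 0.0128). *Map1a* rose from 17.8 ± 0.316 to 23.9 ± 3.57 CPM (log2 fold change 0.43 ± 0.0834 (SE), edgeR adjusted p = 0.0124), and these 3 genes were called in all 25 alternative fits. *Tppp*, which promotes tubulin polymerisation and bundling, fell from 13.4 ± 1.55 to 9.76 ± 1.73 CPM without overlap (log2 fold change -0.45 ± 0.116 (SE), edgeR adjusted p = 0.0348). The call of *Tppp* was lost in 7 of 12 fits that left out 1 muscle, with the highest adjusted p, 0.0802, without Control muscle 2.

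The 16 genes for microtubule nucleation and anchoring at the nucleus held 1 called gene (6.25%) and the 20 motor genes 3 (15%), beside 6.28% of all genes tested. *Syne2*, whose nesprin ties nuclei to the cytoskeleton, fell from 25.3 ± 1.04 to 20.7 ± 1.61 CPM (SD, n = 6) without overlap (log2 fold change -0.29 ± 0.0598 (SE), edgeR adjusted p = 0.0151) and was called in all 25 alternative fits. *Kif1c*, a kinesin, fell from 1304 ± 41.1 to 953 ± 209 CPM (log2 fold change -0.45 ± 0.128 (SE), edgeR adjusted p = 0.0484), with the 6 *FRAIL1* muscles between 569 and 1167 CPM and the 6 Control muscles between 1245 and 1364. It passed in 3 of 12 leave-one-out fits, with the highest adjusted p, 0.0958, without Control muscle 1. Of the dynein genes, *Dynll1* had a log2 fold change of 0.35 ± 0.0980 (SE; edgeR adjusted p = 0.0492) and *Dync1i2* one of 0.23 ± 0.0526 (SE; edgeR adjusted p = 0.0243). They passed in 3 and 10 of the 12 leave-one-out fits, with the highest adjusted p values of 0.103 (without *FRAIL1* muscle 1) and 0.0601 (without Control muscle 1).

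**Figure D4:**
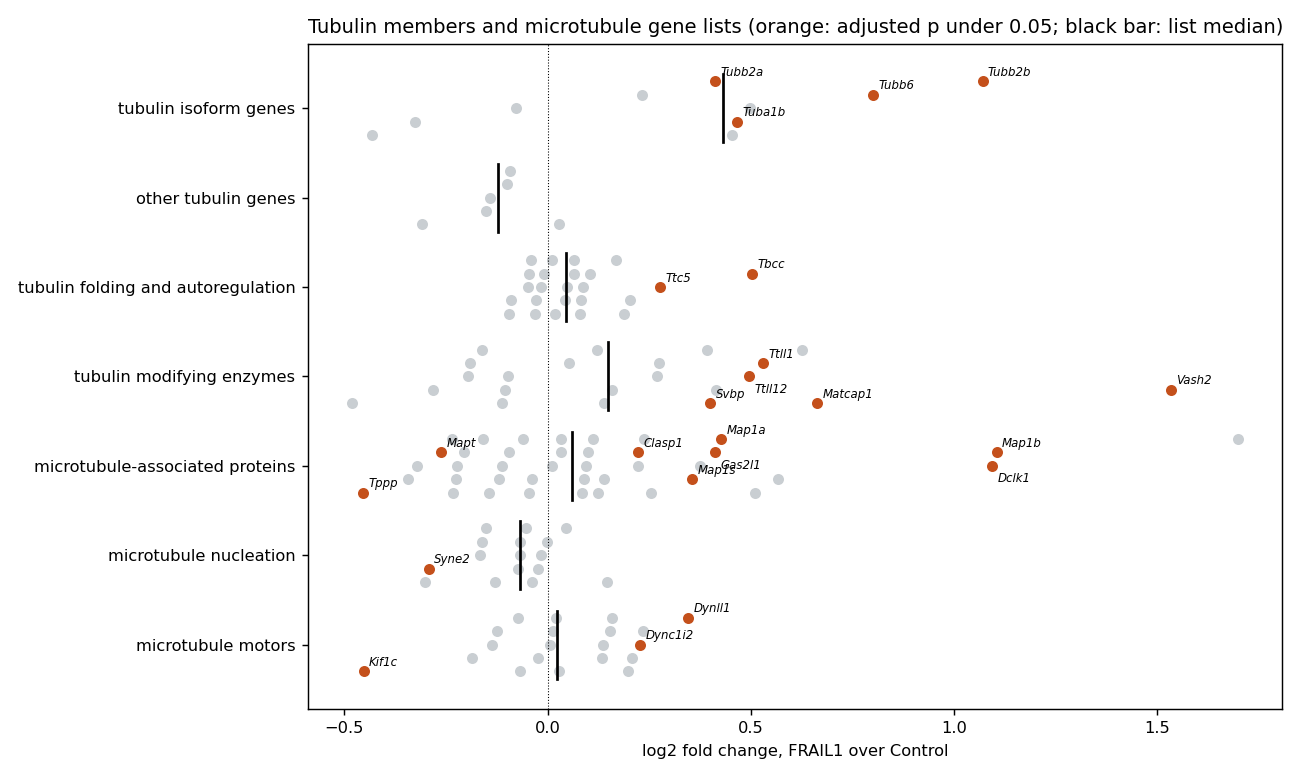
Each point is a gene's log2 fold change of *FRAIL1* over Control (x axis) in the 10 tubulin members and 6 other lists (rows), orange and named where the edgeR adjusted p was below 0.05, with a black bar at the list's median. Medians lie between -0.12 (other tubulin genes) and 0.43 (the 10 members).

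Levels of markers of other cell types and fiber states are given beside the tubulins. Of all genes tested, edgeR called 4.43% higher and 1.85% lower, or 7.48% higher and 6.62% lower with the replicate block. Whole muscle was sequenced, so that fewer cells of a type and less RNA per cell cannot be told apart. Of 10 markers of satellite cells and regenerating fibers, 6 rose (*Myog*, *Mymk*, *Mymx*, *Myh3*, *Myh8* and *Ncam1*). Not called were *Pax7* (edgeR adjusted p = 0.0634), *Myf5* (0.0645), *Myod1* (0.0725) and *Cdh15* (0.186). With the replicate block 9 were called, all but *Cdh15*. The list summed to 212 to 269 CPM in Control and 393 to 1663 CPM in *FRAIL1* muscles. Most of this sum was *Myh3* (mean 50.9 CPM in Control and 228 in *FRAIL1* muscles) and *Myh8* (98.3 and 353 CPM). Of 8 markers of denervated fibers, 4 acetylcholine receptor genes rose (*Chrna1*, *Chrnb1*, *Chrnd* and *Chrng*), and the list summed to 129 to 174 and 245 to 356 CPM. No marker of either list was at 0 in all muscles.

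Fibroblast markers summed to 957 to 1809 CPM in Control and 1923 to 4942 CPM in *FRAIL1* muscles, and macrophage markers to 231 to 360.5 and 290.5 to 751 CPM. Most of the fibroblast sum was *Col1a1* (mean 449 CPM in Control and 927 in *FRAIL1* muscles) and *Col3a1* (731 and 1293 CPM). *Pdgfra*, *Lum* and *Thy1* were higher in the *FRAIL1* leg of 6 of 6 mice, *Dcn* in 4 (184 and 186 CPM), *Dpt* in 3 and *Pi16* in 2. None of the 8 markers of either list was called by edgeR without a block. With the replicate block, 6 of the 8 macrophage markers (*Adgre1*, *Csf1r*, *C1qa*, *C1qb*, *C1qc* and *Lyz2*) and 1 of the 8 fibroblast markers (*Thy1*) were called higher, and DESeq2 called 6 and 3 higher. Beside these counts, the block called 7.48% of all genes higher. DESeq2 called 14.1% in either direction of the genes to which it gave an adjusted p. Markers of proliferating cells summed to 21.7 to 29.7 and 28.5 to 62.6 CPM, with 1 of 7 called (*Cdk1*), or 4 of 7 with the block. Those of Schwann cells summed to 62.2 to 116 and 48.9 to 82.2 CPM, with 0 of 8 called (1 higher with the block). Endothelial markers summed to 421 to 492.9 and 336 to 433 CPM, with 1 of 7 called (*Tek*, lower; 2 lower with the block). Smooth muscle and pericyte markers summed to 225 to 331 and 236 to 285 CPM with 0 of 6 called (2 lower with the block), and lymphocyte markers to 8.41 to 18.1 and 8.36 to 19.4 CPM with 0 of 7 tested called (1 higher with the block). Of the 8 adult fast fiber markers, *Ckm* was called lower, *Myh4* as well with the block, and DESeq2 called 4 lower. The part that these changes in marker levels have in the tubulin values was not tested.

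*FRAIL1* muscle 5 had the highest values of *Tubb6*, *Tubb2b*, *Tubb2a*, *Tuba1b*, *Tuba1a* and *Tubb5* and the lowest of *Tuba4a* and *Tuba8*. On a log2 scale against the Control mean, that muscle stood at 1.93 for *Tubb2b*, 1.38 for *Tubb6* and 0.72 for *Tubb2a*, and at -1.15 for *Tuba4a* and -1.30 for *Tuba8*. The same muscle stood at 2.77 for the summed markers of satellite cells and regenerating fibers, 1.74 for fibroblasts and -0.49 for adult fast fibers. *FRAIL1* muscle 3 had the lowest *FRAIL1* values of *Tubb2b* (0.25), *Tubb2a* (0.13) and the regeneration markers (0.69). It was also lowest for markers of denervated fibers (0.67), fibroblasts (0.38), proliferating cells (0.11), macrophages (-0.11) and lymphocytes (-0.61). *FRAIL1* muscle 6 had the lowest *FRAIL1* value of *Tubb6* (0.45). In the fit without both muscles numbered 5, 4 members were called higher and 0 lower.

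**Figure D5:**
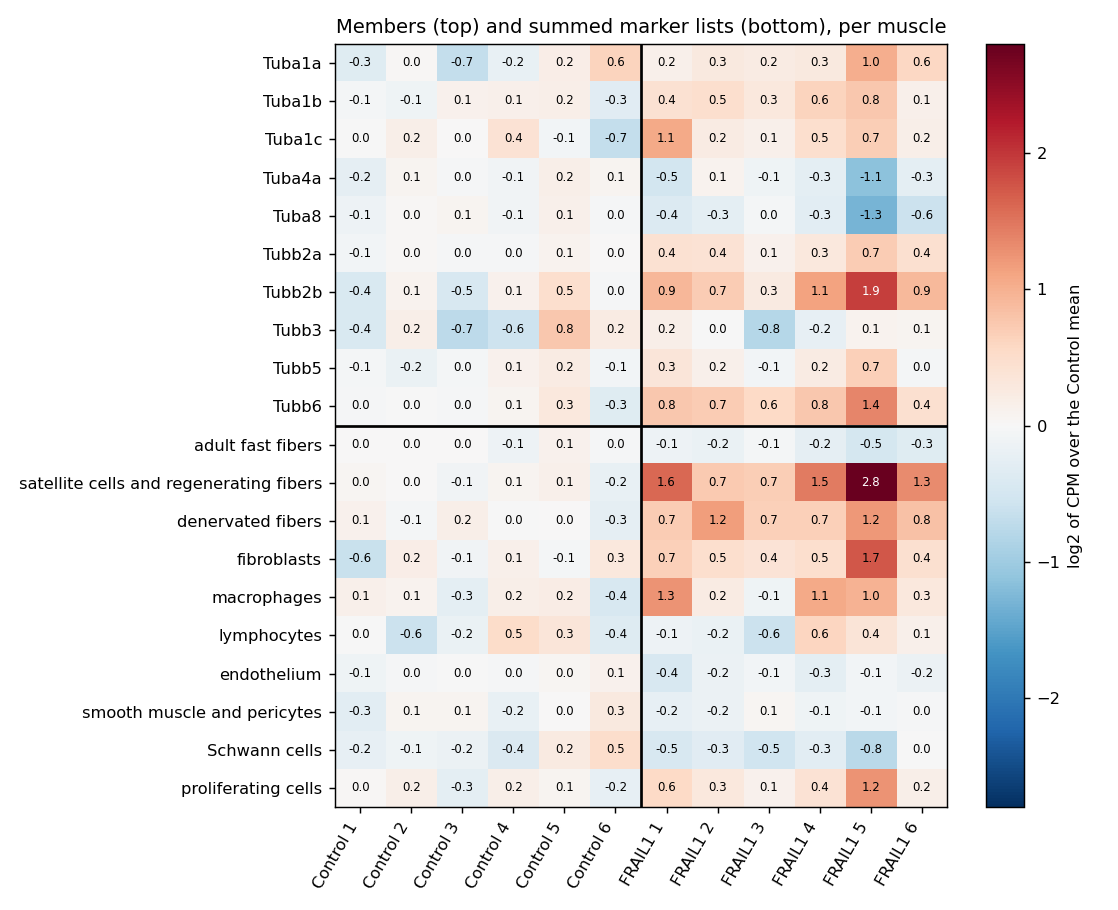
Heat map of each muscle's level relative to the Control mean (color and number, log2 of CPM over the mean of the 6 Control muscles), with the 10 tubulin members above the line and the summed CPM of 10 marker lists below it. In the column of *FRAIL1* muscle 5, *Tubb2b* reads 1.9 and the markers of satellite cells and regenerating fibers read 2.8, the highest values of their rows.

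Genes whose pattern was most like the 3 members with the lowest adjusted p were found from the root-mean-square difference of their log2 CPM, each taken relative to its own Control mean, over the 12 muscles. For *Tubb6* they were *Jpt1*, also named for its association with microtubules (difference 0.110), and *Hes6*, a helix-loop-helix factor (0.136). For *Tubb2a* they were *Impdh1*, an enzyme of guanine nucleotide synthesis (0.0579), and *Lmna*, the gene of nuclear lamins A and C (0.0790). For *Tubb2b* they were *Pdgfrl*, a receptor-like protein (0.160), and *Fgfr4*, a fibroblast growth factor receptor (0.214). *Jpt1* lay between 30.8 and 43.5 CPM in Control and 50.6 and 91.7 CPM in *FRAIL1* muscles, *Lmna* between 97.7 and 110.5 and between 131 and 179 CPM, and *Fgfr4* between 3.97 and 6.47 and between 7.71 and 22.3 CPM. These genes were picked for their likeness, so their own changes are no separate support for those of the tubulins.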

How the data were processed

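Poly(A) RNA of 12 muscles was sequenced in read pairs. The authors trimmed reads with Trimmomatic, mapped them to mm10 with STAR 2.7.8a and counted uniquely mapped reads per gene with featureCounts 2.0.1, and the deposited values are raw counts. Of 27179 genes, 25275 matched a symbol; the rest held 0.28% of counts. Counts were filtered (edgeR filterByExpr), scaled by TMM and fitted with edgeR 4.0.16 (robust quasi-likelihood test, Benjamini-Hochberg over 15502 genes, threshold 0.05), with no block because the methods state none. Alternatives were DESeq2 1.42.0, limma 3.58.1, a replicate block, other scalings and filters, and leaving out muscles. Deviations of same-numbered muscles from their group means correlated at 0.254, 0.162, 0.282, 0.263, 0.0547 and 0.185 for numbers 1 to 6. For number 5 the highest correlation with another number was 0.173, above that with its own number, and for the other numbers it was below. The pairing comes from the opposite legs of one mouse, which the labels do not tie to the number. Lengths, coding ends and shared stretches came from GENCODE vM21 (BLAST 2.17.0, MAFFT 7.526). Genes named were all 10 members, up to 4 called genes per list by size of change, and 2 genes most like each of 3 members. Members and lists were chosen with earlier results of these data known. The 12 muscles come from 6 mice. In fits without the block, p-values measure the spread between muscles and do not use the pairing of legs. Coding ends of 4 members are not reported here.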

Additional observations from a re-analysis of the deposited data

Results flagged for a closer look

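In 10 genes the highest of the 6 *FRAIL1* values, always muscle 5, lay far from the next, by a test that chance fails in about 1 of 20 groups. In all, 62 groups of 6 values were tested and 11 were flagged. Many of these genes were named for being called or for their likeness to a member, and all share the same muscles. The 62 groups are therefore not independent, and their count cannot be set against 1 of 20. *Tubb2b* had 10.4 CPM there against 5.91 in the next muscle, and *Tubb6* had 121 against 78.9. Among genes of the microtubule lists, *Map1b* had 73.6 CPM (next 49.95), *Vash2* 20.02 (next 9.84) and *Matcap1*, listed as *4931428F04Rik*, 4.23 (next 2.86). Of the genes picked for a pattern like that of *Tubb6*, *Tubb2a* or *Tubb2b*, whose flags are therefore not independent of theirs, *Jpt1* had 91.7 CPM (next 65.8), *Hes6* 25.9 (next 18.2), *Impdh1* 37.0 (next 30.7), *Pdgfrl* 12.5 (next 6.75) and *Fgfr4* 22.3 (next 11.3). In Control muscles, *Dynll1* was flagged for muscle 5, with 32.2 CPM against 27.1 in the next muscle.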

How the results depend on the processing

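Depth does not limit the abundant members, but *Tuba1a*, *Tuba1c*, *Tubb2b* and *Tubb3* had low counts, and unique counting leaves the *Tuba1* genes uncertain one by one. The number of members called higher stayed at 4 under every alternative that kept all 12 muscles and when both muscles numbered 5 were left out. It lay between 2 and 4 when 1 muscle was left out (2 without Control muscle 1, 2, 3 or 6, and 3 without *FRAIL1* muscle 1 or 4), and the number called lower between 0 and 1. DESeq2 and limma voom each called 1 member lower (*Tuba8*), and DESeq2 with the replicate block and edgeR with the block and without the muscles numbered 5 called 2 (*Tuba4a* and *Tuba8*). For the pairing by number, the replicate block called 11 genes of the microtubule lists lower in place of 4, and it changed no call of a member. Other counts of list genes called lower were 2 with no filter, 9 with DESeq2 (12 with the block), 9 with limma voom and 9 with the block without the muscles numbered 5. Leaving out 1 muscle gave 7 to 18 list genes called higher and 1 to 10 called lower. Over all genes, 974 were called, 2186 with the replicate block, 2154 with DESeq2 (2829 with the block), 1836 with limma voom, 2305 with the block without the muscles numbered 5, and 364 to 2110 when 1 muscle was left out. The log2 fold change of *Tubb3* changed sign to 0.028 with limma voom, 0.092 (0.10 with the replicate block) without the muscles numbered 5, 0.13 without Control muscle 5 and 0.032 without *FRAIL1* muscle 3, and lay between -0.19 and 0.13 when 1 muscle was left out. The causes were not tested.

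Shares were recomputed with the longest transcript, and, in alternatives chosen after seeing the data, with the length free of stretches shared with other genes and with *Tubb4a* and *Tubb4b* in the beta pool. With the longest transcript, Control and *FRAIL1* shares were 59.9% and 60.6% for *Tuba4a*, 38.4% and 36.1% for *Tuba8*, 26.2% and 23.0% for *Tubb2a*, and 52.1% and 59.2% for *Tubb6*, the beta values being the same with the length free of shared stretches. That length gave 0.983% and 1.77% for *Tuba1a*, 6.74% and 11.9% for *Tuba1b*, 0.501% and 0.905% for *Tuba1c*, 65.8% and 62.5% for *Tuba4a*, and 25.96% and 22.9% for *Tuba8*. All counts of a gene were divided by it, also any read from the shared stretches, so it can distort these shares. It was 155 bases in place of 1875 for *Tuba1b* and 1461 in place of 3701 for *Tuba4a*. In the larger beta pool the shares were 12.9% and 14.9% for *Tubb2a*, 1.15% and 2.08% for *Tubb2b*, 1.17% and 0.973% for *Tubb3*, 6.62% and 6.71% for *Tubb5*, and 18.6% and 27.9% for *Tubb6*. The shares of *Tubb2a* and *Tubb5* were thus lower in *FRAIL1* muscles among the 5 members and higher once *Tubb4a* and *Tubb4b* were pooled with them. That of *Tuba4a* was lower in *FRAIL1* muscles only with the length free of shared stretches.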

Other observations

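Some genes around the tubulins that the edgeR test did not call are given as values, chosen after their values were seen. *Dcx*, which encodes doublecortin, a microtubule-binding protein of migrating neurons, was read at 0.0828 to 0.487 CPM in Control and 0.379 to 2.71 CPM in *FRAIL1* muscles (log2 fold change 1.70 ± 0.525 (SE), edgeR adjusted p = 0.0632, and 0.0456 with the replicate block). *Stmn1*, whose protein sequesters tubulin dimers, had 2.90 CPM in Control and 4.14 CPM in *FRAIL1* muscles (log2 fold change 0.51 ± 0.248 (SE), edgeR adjusted p = 0.195). *Vash1*, the relative of *Vash2* and also a tyrosine-removing enzyme, had a log2 fold change of 0.63 (edgeR adjusted p = 0.0833). *Ttll7*, a polyglutamylase, had 71.8 CPM in Control and 51.5 CPM in *FRAIL1* muscles (log2 fold change -0.48, edgeR adjusted p = 0.0871, and 0.0143 with the replicate block).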
